A study of Rattus norvegicus with 24 samples.

Results

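Immediate early and stress transcription factors were examined in the retina of rats made diabetic with streptozotocin (STZ), a toxin that destroys the insulin-producing beta cells of the pancreas. The set held 9 genes chosen by name, Fos, Jun, Junb and Fosl1, Egr1, Nr4a1, Atf3, Myc and Gadd45a. Every array probe whose RefSeq accession led to one of these symbols was taken, which gave 12 probes for 8 genes, out of 33849 rat probes and 4012 genes with a symbol. No probe was paired with Fos, and Fos was not analysed here. Male Sprague Dawley rats received STZ in citrate vehicle (STZ groups) or the vehicle alone (control groups), none received insulin, and whole retinas were taken 1 month or 3 months after the injection. Each of the 4 groups, control and STZ at either time, had 6 arrays, 1 per rat, diabetic rats were kept on the basis of blood glucose, and the 1 month and 3 month animals were raised and killed as separate sets. The labels give 6 arrays for the 1 month controls while the study's animal table lists fewer such rats, so whether each of those arrays was a separate rat is not settled. A level is the background-subtracted spot intensity divided by the median of all rat probes on that array. In a whole tissue, fewer cells of a type and less RNA per cell cannot be told apart.

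Immediate early genes are transcribed within minutes of a stimulus because the factors that switch them on are already present in the cell. Fos and Jun family proteins pair through leucine zippers to form AP-1, Egr1 and Nr4a1 are zinc finger factors that respond to activity, growth factor and calcium signals, and Atf3 is a stress-induced partner of the AP-1 family. Gadd45a, a growth arrest and DNA damage gene, is switched on by p53 and by stress pathways, and in the retina such genes have been studied in neurons, in Mueller glia and after injury.

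Of the 12 probes, 9 were bright enough to be tested, covering 7 genes. Myc, the second Junb probe (GE20810) and the second Egr1 probe (GE19814) lay under the limit for dim probes, which was a median level of 0.554 over the 24 arrays. A probe was called at an adjusted p (limma, Benjamini-Hochberg) under 0.05 and a difference of at least 1.2-fold. At 1 month 0 of the 9 member probes were called, beside 2 of all 22025 tested (0.00908%), and 0 of the 9 had an unadjusted p under 0.05 against 927 of all. At 3 months 7 of the 9 probes were called higher in STZ, covering 6 of the 7 genes, and 0 were called lower. The background for that count was high, since 54.1% of all probes tested were called at 3 months, 50.5% higher and 3.55% lower. The median log2 fold change of all probes tested was 0.44 at 3 months and 0.01 at 1 month, so the members are given below both as measured and relative to that median.

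The 3 month arrays stood apart in ways that touch every result below. The interquartile range of log2 levels was 3.36 to 3.67 on the 1 month arrays, 1.48 to 2.23 on 3 month controls and 2.07 to 2.70 on 3 month STZ arrays, so at 3 months array spread moved with the group. Array brightness did as well, with median intensities of 149 to 308 in 3 month controls and 125 to 164 in 3 month STZ. With array spread as a covariate 0 of 22025 probes were called at 3 months, at an unadjusted p under 0.05 for 1934, and the median log2 fold change of all probes was 0.05. The 62 probes for bacterial genes, which should find no target in rat RNA, had a median level of 0.0589 to 0.137 at 1 month and 0.447 to 0.750 at 3 months. Their 95th percentile on each array (0.632 to 1.18 at 1 month, 1.16 to 1.72 at 3 months) was used as the background level of that array, a choice made after seeing the data. The rod genes Sag, Cnga1 and Prph2 were above it on all 24 arrays. Because of these differences no level was compared between 1 and 3 months.

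The promoters of 4 members with a called probe are shown for the letters that AP-1 and its CREB/ATF relatives bind. Each holds the 250 bases before the gene's start and the first 50 of the gene (RefSeq, build GRCr8), 5′ to 3′ on the gene's strand. Capitals mark any match, on either strand, to TGACTCA (the AP-1 site), TGACGTCA (the CREB/ATF site) or TGCGTCA (a variant of the CREB/ATF site).
Nr4a1, chr7:134259888-134260187 (+): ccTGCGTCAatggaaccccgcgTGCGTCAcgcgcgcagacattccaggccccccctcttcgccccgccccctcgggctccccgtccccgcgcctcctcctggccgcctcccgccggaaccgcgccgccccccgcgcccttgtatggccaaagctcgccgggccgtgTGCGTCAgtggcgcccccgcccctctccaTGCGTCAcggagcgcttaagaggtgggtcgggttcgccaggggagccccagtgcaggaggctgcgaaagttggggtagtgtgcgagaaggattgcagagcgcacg
Fosl1, chr1:212183635-212183934 (+): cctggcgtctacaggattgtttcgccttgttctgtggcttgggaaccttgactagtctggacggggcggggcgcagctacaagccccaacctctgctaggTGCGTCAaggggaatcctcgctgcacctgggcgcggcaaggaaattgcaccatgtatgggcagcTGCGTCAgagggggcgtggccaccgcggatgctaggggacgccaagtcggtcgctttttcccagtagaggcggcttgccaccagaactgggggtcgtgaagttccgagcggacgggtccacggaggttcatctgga
Junb, chr19:40080876-40081175 (+): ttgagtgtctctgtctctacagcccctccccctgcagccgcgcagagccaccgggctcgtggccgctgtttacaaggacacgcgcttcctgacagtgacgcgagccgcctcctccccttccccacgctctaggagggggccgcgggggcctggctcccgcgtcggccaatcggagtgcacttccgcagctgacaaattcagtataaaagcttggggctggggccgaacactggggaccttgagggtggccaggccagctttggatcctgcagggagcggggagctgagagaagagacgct
Gadd45a, chr4:97486750-97487049 (-): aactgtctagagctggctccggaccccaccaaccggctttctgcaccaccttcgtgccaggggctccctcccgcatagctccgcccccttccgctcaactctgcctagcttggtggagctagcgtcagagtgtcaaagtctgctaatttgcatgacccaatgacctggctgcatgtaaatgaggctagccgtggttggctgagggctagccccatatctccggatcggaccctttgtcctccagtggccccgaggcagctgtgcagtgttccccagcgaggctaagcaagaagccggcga

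Nr4a1 held TGCGTCA at 4 places, starting at -248, -228, -84 and -55 from the gene's start, and Fosl1 held it at -150 and -86. Of 33469 rat promoter windows of this length 1.90% held TGCGTCA at least once and 1 window, that of Nr4a1, held it 4 times. TGACTCA was in 4.63% of all windows and TGACGTCA in 1.83%, and neither was in these 4. The windows of Junb and Gadd45a held none of the 3 motifs, and neither did that of Egr1, another called member, which is not shown. This says only that these letters are absent from these bases.

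**Figure D1:**
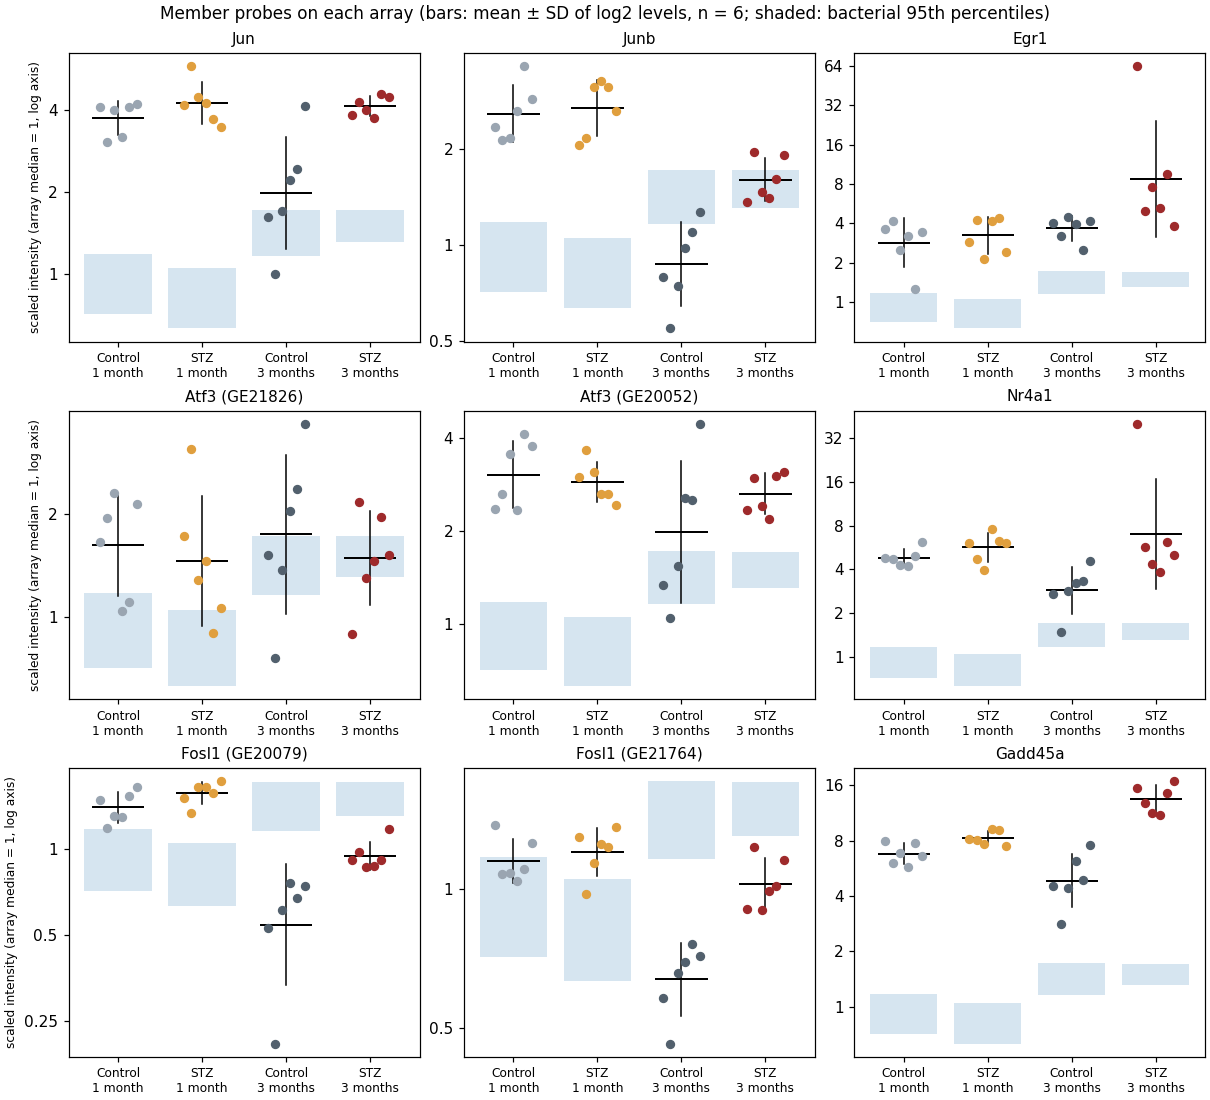
Scaled intensity (array median set to 1, log axis) of the 9 tested member probes on each of the 24 arrays, by group, with bars for the mean ± SD of log2 levels (n = 6) and shading for the range of the bacterial 95th percentiles. Gadd45a in 3 month STZ (10.97 to 16.8) lies above all 3 month controls (2.84 to 7.56), single STZ points of 63.5 and 40.1 stand far above the others for Egr1 and Nr4a1, and both Fosl1 probes lie below the shading at 3 months.

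Under median scaling, Gadd45a had the largest log2 difference and the lowest adjusted p of the set at 3 months. Under quantile normalization the signal of both Fosl1 probes (1.42 on GE20079) and Junb (1.08) differed by more. At 3 months, however, both Fosl1 probes were above background on 0 arrays of either group, and Junb on 0 of 6 controls and 5 of 6 STZ arrays. Control levels ran from 2.84 through a median of 4.71 to 7.56, and STZ levels from 10.97 through 13.7 to 16.8. All 6 STZ rats were above all 6 controls, a separation seen in 9.49% of all probes tested, and every array was above its background level. The log2 fold change was 1.48 ± 0.17 (SE, n = 6 per group, adjusted p = 1.32e-05, limma), or 2.78-fold, which placed the probe at the 99.3rd percentile of all probes and 1.03 above their median. At 1 month the controls spanned 5.73 to 7.97 and STZ 7.45 to 9.19, with a log2 difference of 0.28 ± 0.17 that was not called, and the groups overlapped, where 0.336% of all probes had every STZ rat above every control. The difference between the 3 month and 1 month effects was itself called, at 1.19 ± 0.24 (adjusted p = 0.0125), where 15.5% of all probes were called, 14.8% higher. Gadd45a kept its 3 month call under quantile normalization, which gives all arrays the same distribution, at 0.90 (adjusted p = 1.37e-05) and 0.74 above the median of all probes, and lost it with array spread as a covariate (1.00, adjusted p = 0.326).

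Jun encodes the AP-1 subunit that pairs with Fos proteins and is phosphorylated by JNK. At 3 months its controls ran from 0.999 through 1.96 to 4.13 and its STZ levels from 3.74 through 4.13 to 4.60. The groups overlapped through a single animal, control rat 6, while the other 5 controls lay at or below 2.42. The log2 fold change was 1.06 ± 0.21 (adjusted p = 0.000595, limma), 0.61 above the median of all probes. The call was lost with the methods' test, which lets variances differ between groups within a time point (limma not used, adjusted p = 0.0617). Controls were also much more scattered than STZ rats, with an SD of log2 levels of 0.68 against 0.12, which were the 93.3rd and 8.08th percentiles of the probes tested in those groups. At 1 month the levels overlapped, at 3.05 to 4.22 in controls and 3.48 to 5.80 in STZ. The difference of the 2 effects was 0.88 ± 0.30 (adjusted p = 0.0464), a call that was lost when any of 17 of the 24 arrays was left out.

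Junb, an AP-1 subunit that often restrains Jun, was measured by 1 tested probe. At 3 months controls ran from 0.546 through 0.885 to 1.26 and STZ from 1.36 through 1.54 to 1.95, with no overlap. Of the arrays, 0 of 6 controls and 5 of 6 STZ were above their background level. The log2 signal difference was 0.88 ± 0.18 (adjusted p = 0.000820, limma), and the control level is only bounded from above. The mean STZ level was 1.18-fold the background level of the control arrays. That mean counts an STZ array below its own background as measured, so no least fold is given. At 1 month all 12 arrays were above background, with 2.13 to 3.64 in controls and 2.06 to 3.27 in STZ. The difference of the effects was 0.82 ± 0.26 (adjusted p = 0.0384) and its call was lost on leaving out any of 12 of the 24 arrays. The dim Junb probe GE20810 was at or under 0.317 on every array, below background throughout.

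Fosl1, which encodes the Fos family member Fra-1, had 2 probes, and both were at background at 3 months. For GE20079 the 3 month levels were 0.209, 0.645 and 0.761 (lowest, median, highest) in controls and 0.866, 0.919 and 1.18 in STZ. For GE21764 they were 0.462, 0.677 and 0.762 in controls and 0.901, 1.01 and 1.24 in STZ. The groups did not overlap on either probe, yet 0 of the 12 arrays exceeded their own bacterial 95th percentile on either, so no fold is given. The log2 signal differed by 0.80 ± 0.21 (adjusted p = 0.00357, limma) and 0.69 ± 0.14 (adjusted p = 0.000548), which was 0.36 and 0.25 above the median of all probes. At 1 month GE20079 was above background on all 12 arrays and did not pass, at 1.18 to 1.66 in controls and 1.34 to 1.73 in STZ. The difference of the effects was called for GE21764 alone, at 0.63 ± 0.19 (adjusted p = 0.0357), and that call was lost on leaving out any of 9 of the 24 arrays.

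Egr1, a zinc finger factor induced by neuronal activity and growth factors, was measured by GE1278192. At 3 months controls ran from 2.48 through 4.01 to 4.47, and STZ from 3.83 through 6.40 to 63.5. Of the STZ rats 5 of 6 were above the highest control, and the highest value came from rat 1, with the next at 9.50. The log2 fold change was 1.26 ± 0.43 (adjusted p = 0.0167, limma), and 0.69 (adjusted p = 0.0342) without STZ rat 1. The call was lost when STZ rat 1 and control rat 2 were both left out (0.65, adjusted p = 0.0659) and under quantile normalization (0.58, adjusted p = 0.249). At 1 month Egr1 was among the most scattered probes, with SDs of log2 levels at the 97.0th percentile in controls and the 89.1st in STZ, and levels of 1.26 to 4.19 and 2.13 to 4.38. For Egr1 the difference of the effects was 1.07 ± 0.60 (adjusted p = 0.172) and was not called. The dim Egr1 probe GE19814 was below background on all 24 arrays, and on the array of STZ rat 1 it had the lowest value of its group, 0.188.

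Nr4a1, an orphan nuclear receptor (Nur77) induced by the same kinds of stimuli, showed the same single array. At 3 months controls ran from 1.47 through 3.03 to 4.57 and STZ from 3.85 through 5.37 to 40.1, the last again from rat 1, with the next at 6.18. Of the STZ rats 4 of 6 were above the highest control. The log2 fold change was 1.29 ± 0.36 (adjusted p = 0.00567, limma), and it was 0.79 (adjusted p = 0.00502) without STZ rat 1 and 0.59 (adjusted p = 0.0114) without STZ rat 1 and control rat 2. Under quantile normalization Nr4a1 was not called (0.77, adjusted p = 0.0659). At 1 month levels were 4.21 to 6.12 in controls and 3.96 to 7.61 in STZ. For Nr4a1 the difference of the effects was 1.05 ± 0.51 (adjusted p = 0.122) and was not called.

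The array of 3 month STZ rat 1 carried 336 rat probes at least 4-fold above the highest of the other 23 arrays, against 128 on the array of 3 month control rat 2 and at most 11 on any other. These 336 spots made up 0.991% of the array, and 254 of them touched another of the 336 in the grid of rows and columns. Around the Nr4a1 spot, 17 of the 45 spots within 3 rows and columns were among the 336, and the neighbours' median was 1.13 on the log2 scale above the other 5 STZ arrays. On those 5 arrays the same median lay between -0.35 and 0.09. Around the Egr1 spot the neighbours' median was 0.06, and 1 of its 7 touching spots was among the 336. Around the dim Egr1 probe, 3 of 8 touching spots were among them although its own value was low. None of the spots touching a probe of Jun, Junb, Atf3, Fosl1 or Gadd45a was among the 336. The part of position on the array in the values of 63.5 and 40.1 was not tested.

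Atf3, a bZIP repressor induced by cell stress and axon injury, was the tested member with no call at either time. On GE20052 the 3 month controls ran from 1.05 through 2.02 to 4.44 and STZ from 2.18 through 2.68 to 3.09, a log2 difference of 0.41 ± 0.24 (adjusted p = 0.146, limma). On GE21826 the 3 month controls ran from 0.759 through 1.78 to 3.65 and STZ from 0.895 through 1.48 to 2.15, a difference of -0.23 ± 0.31 (adjusted p = 0.532). The probes therefore differed in sign, and the STZ values lay inside the range of the controls on both. GE20052 was called (0.64, adjusted p = 0.00958) without control rat 6, the animal that was also highest for Jun. Atf3 GE21826 was scattered in all 4 groups, with its SD at the 92.0th, 96.2nd, 97.4th and 93.9th percentile of the probes tested.

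Myc, a bHLH factor of growth and the cell cycle, was not measured above background on any array. Its probe read 0.01 (the floor) to 0.0953 in 1 month controls, 0.0181 to 0.0533 in 1 month STZ, 0.704 to 1.22 in 3 month controls and 0.410 to 0.867 in 3 month STZ. At 3 months 5 of 6 STZ values lay below the lowest control. The log2 signal difference was -0.59, on a probe under the limit for dim probes. No fold is given.

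**Figure D2:**
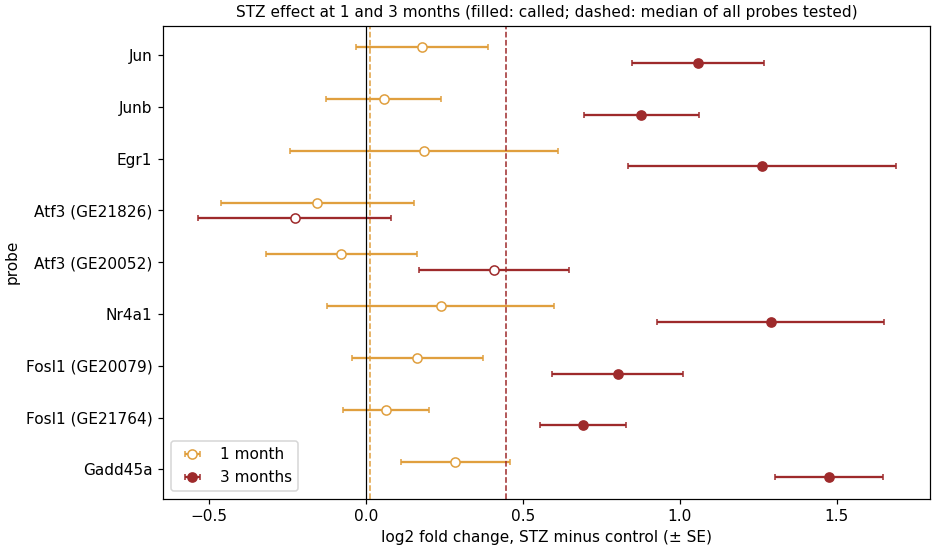
Log2 fold change of STZ against control (± SE) for the 9 tested member probes at 1 and 3 months, filled where called, with dashed lines at the median of all probes tested (0.01 and 0.44). The 1 month values lie between -0.15 and 0.28, and at 3 months 7 of 9 probes are called and lie to the right of the 3 month median.

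**Figure D3:**
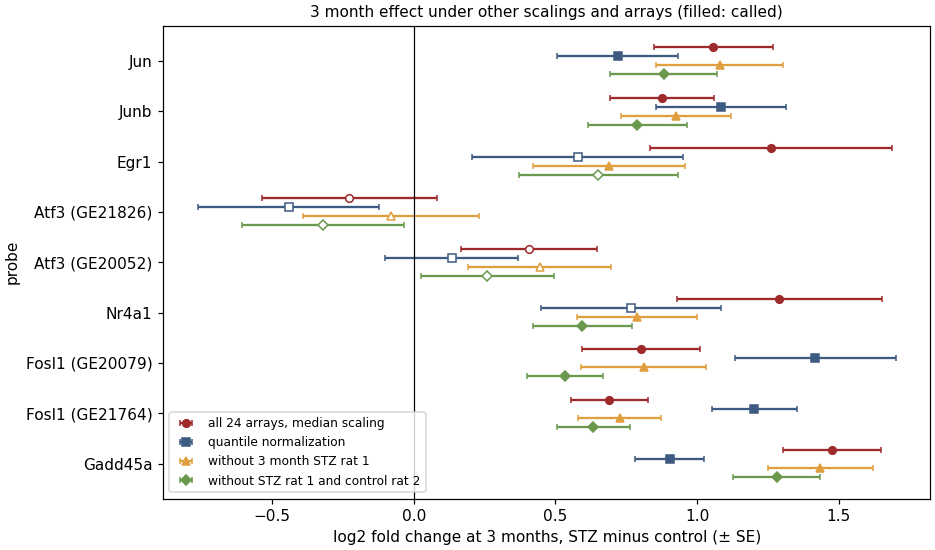
Log2 fold change at 3 months (± SE) for the 9 tested member probes under 4 settings: all 24 arrays with median scaling, quantile normalization, without STZ rat 1, and without STZ rat 1 and control rat 2. Filled symbols are called. Egr1 moves from 1.26 to 0.69 and Nr4a1 from 1.29 to 0.79 without STZ rat 1, while Gadd45a stays between 0.90 and 1.48.

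Between scalings the picture changed in size. Quantile normalization lowered the median of all probes at 3 months to 0.16, and it called 5424 probes higher and 1524 lower, where median scaling called 11130 higher and 781 lower. Relative to the median of all probes, the members were at 0.56 for Jun, 0.92 for Junb, 0.42 for Egr1, 0.61 for Nr4a1, 1.26 and 1.04 for the Fosl1 probes and 0.74 for Gadd45a under quantile normalization. With median scaling Junb, Egr1 and Nr4a1 were 0.43, 0.82 and 0.85 above that median. The Atf3 probes were below that median under both scalings, at -0.67 and -0.04 with median scaling. All 7 called probes kept a positive sign under quantile normalization, the deposited normalized values and 5th percentile subtraction.

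The members also varied between rats of the same group. After the group means were removed, 21 pairs of the 7 genes were compared over 24 arrays, each gene by its brightest probe, with p-values from 100000 shuffles within groups adjusted over the 21 pairs. Of these, 11 pairs passed 0.05, and 3 passed with the replicate number as a block. Such relations were common on these arrays, since r was at least 0.5 in 12 of the 21 member pairs and in 34.3% of 21924 pairs of a member with another probe that had a symbol, with medians of 0.62 and 0.32. No closeness particular to the members is read from these counts. Jun and Atf3 went together most closely (Pearson r = 0.92, permutation p = 1e-05, the smallest these shuffles can give, adjusted p = 0.00021, Spearman rho = 0.88, permutation p = 7e-05, adjusted p = 0.00147). The coefficient was 0.71 within the 1 month rats, 0.97 within the 3 month rats and 0.81 without the 2 arrays farthest from the median of Jun. Junb and Fosl1 (r = 0.73, permutation p = 8e-05, adjusted p = 0.00084, rho = 0.73, permutation p = 0.0003, adjusted p = 0.00315) kept r = 0.68 without the 2 farthest arrays, with 0.66 within 1 month and 0.83 within 3 months. At 3 months Fosl1 was above background on 0 of 12 arrays and Junb on 5 of 12, so the 3 month coefficients with Fosl1 are those of signal at background level. Fosl1 and Gadd45a (r = 0.79, permutation p = 0.0003, adjusted p = 0.0021, rho = 0.66, permutation p = 0.00216, adjusted p = 0.00916) kept 0.61, with 0.38 within 1 month and 0.85 within 3 months.

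Of the 11 pairs, 4 kept r of at least 0.5 without the 2 farthest arrays, the other being Nr4a1 and Gadd45a (r = 0.53, permutation p = 0.00413, adjusted p = 0.0108, rho = 0.67, permutation p = 0.00082, adjusted p = 0.00574). Without the 2 farthest arrays r was 0.61, with 0.40 within 1 month and 0.55 within 3 months. Egr1 and Nr4a1 (r = 0.78, permutation p = 0.0217, adjusted p = 0.0456, rho = 0.43, permutation p = 0.0499, adjusted p = 0.0806) fell to 0.22 without STZ rat 1, and so rested on that array. Its r was 0.26 within 1 month and 0.87 within 3 months. Jun and Junb fell from 0.62 (permutation p = 0.0118, adjusted p = 0.0275, rho = 0.47, permutation p = 0.0489, adjusted p = 0.0806) to 0.28 without the 2 farthest arrays, with -0.03 within 1 month and 0.91 within 3 months. Without control rat 2 of the 3 month group only 6 pairs passed.

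Array brightness moved with some of these levels. Of 14 relations between the 7 genes and array spread or brightness, 2 passed an adjusted p of 0.05 over the 14. Junb was lower on brighter arrays of its group (r = -0.72, permutation p = 0.00011, adjusted p = 0.00154, rho = -0.78, permutation p = 6e-05, adjusted p = 0.00084, and r = -0.76 without the 2 farthest arrays). Atf3 was as well (r = -0.59, permutation p = 0.00525, adjusted p = 0.0367, rho = -0.64, permutation p = 0.00586, adjusted p = 0.0410, and r = -0.49 without the 2). Within the 1 month rats the coefficient was -0.76 for Junb and -0.48 for Atf3. Within the 3 month rats the same coefficient was -0.75 for Junb, -0.86 for Atf3, -0.84 for Jun and -0.76 for Gadd45a. The part of brightness in the pairs and in the 3 month differences was not tested.

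**Figure D4:**
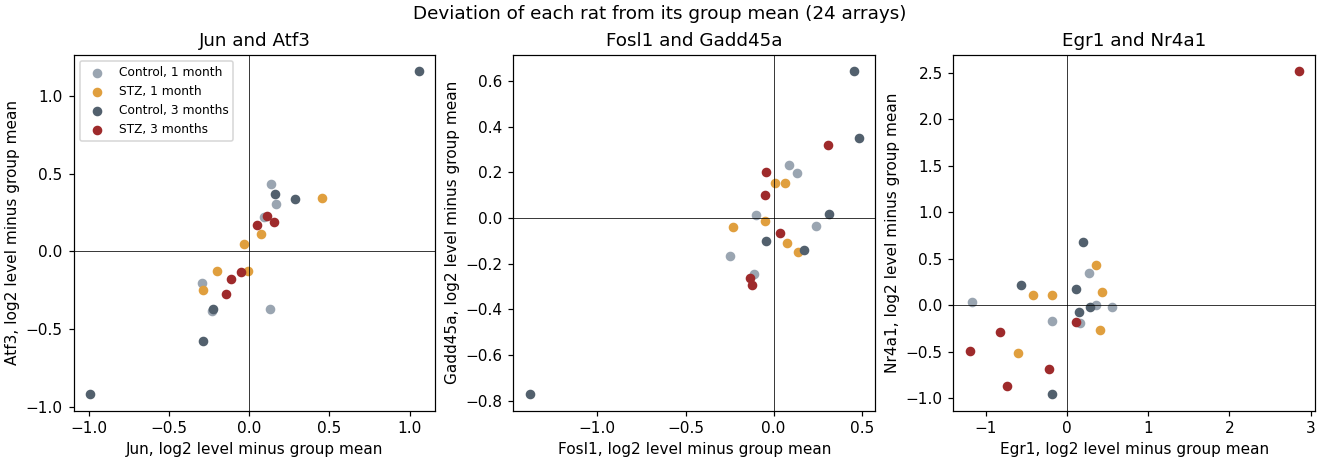
Deviation of each rat's log2 level from its group mean for 3 pairs of genes, 24 arrays coloured by group. Jun and Atf3 lie along a line in all groups (r = 0.92), Fosl1 and Gadd45a spread more widely (r = 0.79), and the relation of Egr1 and Nr4a1 (r = 0.78) is set by a single 3 month STZ point at the upper right.

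The genes whose deviations were most like each member, among 3132 other probes with a symbol and over the same 24 arrays, are given as a description. For Jun they were Wdr12 (r = 0.92), Gucy2e (0.91) and Limk2 (0.91), and for Atf3 Gucy2e (0.91), Ptk2 (0.89) and Cyp17a1 (0.89). For Gadd45a they were the proteasome subunit genes Psmd4 (0.92) and Psmb7 (0.89) and, between them, G6pc3 (0.90). For Junb they included Fut2 (0.93) and Nos1ap (0.93), and for Fosl1 Acsm2 (0.93), Igfbp3 (0.93) and Kctd13 (0.92). For Nr4a1 they were Ppp1r9b (0.96), Slc44a1 (0.93) and Pde11a (0.93), and for Egr1 Prps1 (0.86), Pdgfc (0.85) and Adgrg2 (0.84), all 6 of them highest of their group on the array of STZ rat 1. Without it the coefficients were 0.84, 0.71 and 0.66 for the 3 genes with Nr4a1 and 0.63, 0.36 and 0.29 for those with Egr1.

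Around the 9 genes, 7 lists of related genes were read by 1 probe per gene, beside 2811 genes with a symbol whose median log2 fold change at 3 months was 0.50 and of which 56.0% were called higher and 3.45% lower. In these lists 0 genes were called at 1 month. Each count below is given under median scaling with that under quantile normalization beside it. Of all 22025 probes tested, quantile normalization called 5424 higher and 1524 lower at 3 months.

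Among other AP-1 and bZIP factors 3 of 5 were called higher at 3 months (median 0.78), against 1 of 5 under quantile normalization. They were Crem, a cAMP-responsive factor (0.86 ± 0.20, adjusted p = 0.00162), Maf (0.81 ± 0.23, adjusted p = 0.00528) and Nfe2l2, the Nrf2 factor of the antioxidant response (0.78 ± 0.21, adjusted p = 0.00415). Crem kept its call under quantile normalization (0.65, adjusted p = 0.0167). Maf (0.60, adjusted p = 0.0768) and Nfe2l2 (0.33, adjusted p = 0.177) lost theirs. Among upstream kinases 6 of 13 were called higher and 1 lower (median 0.37), against 1 and 1. The highest were Mapk3, which encodes ERK1 (0.88 ± 0.18, adjusted p = 0.000608), and the MAP kinase kinases Map2k5 (0.81 ± 0.20, adjusted p = 0.00260) and Map2k2 (0.79 ± 0.17, adjusted p = 0.00108). Mapk3 kept its call under quantile normalization (0.63, adjusted p = 0.00666). Map2k5 (0.45, adjusted p = 0.117) and Map2k2 (0.17, adjusted p = 0.305) lost theirs. The lower gene was Rps6ka1, which encodes a ribosomal S6 kinase, with levels of 0.703 to 1.45 in controls and 0.319 to 0.742 in STZ and 1 of the 12 arrays above background.

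Among other immediate early genes 11 of 18 were called higher (median 0.42), against 3 higher and 1 lower under quantile normalization. The lower one was Sgk1, a serum-induced kinase that was called higher under median scaling (0.42 ± 0.18, adjusted p = 0.0476) and so turned direction (-0.35, adjusted p = 0.0278). Cebpd, an injury and cytokine-induced C/EBP factor, stood at the top with controls of 1.09 to 4.31 and STZ of 7.08 to 25.3, a log2 fold change of 2.38 ± 0.33 (adjusted p = 4.22e-05). Plk2 (1.00 ± 0.35, adjusted p = 0.0208) was another probe raised on the array of STZ rat 1, at 16.4, and was 0.51 (adjusted p = 0.0403) without it. Under quantile normalization Plk2 was not called (0.69, adjusted p = 0.147). Klf10 was at 0.91 ± 0.22 (adjusted p = 0.00205), with 1 of 6 controls and 5 of 6 STZ rats above background. Among feedback inhibitors, the phosphatases and RNA-decay factors that end the response, 7 of 9 were called higher (median 0.70), against 6. These included Dusp5, an ERK phosphatase (0.94 ± 0.18, adjusted p = 0.000438), Btg2 (0.91 ± 0.19, adjusted p = 0.000784) and Zfp36l1 (0.85 ± 0.20, adjusted p = 0.00207).

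Among genes of the ATF4, CHOP and p53 stress responses 12 of 17 were called higher (median 0.62), against 2 higher and 2 lower under quantile normalization, the latter being Ddit4 and Asns. Nupr1, a stress-induced chromatin protein, was below background in all 6 controls and above it in 4 of 6 STZ rats. Its measured signal difference was called (adjusted p = 0.00242). Its mean STZ level, counting STZ arrays below their own background as measured, was 1.69-fold the background level of the control arrays. The p53 target Ccng1 (0.97 ± 0.20, adjusted p = 0.000624) and Ppp1r15a, which encodes GADD34 (0.84 ± 0.19, adjusted p = 0.00166), followed. Under quantile normalization neither Ccng1 (0.17, adjusted p = 0.409) nor Ppp1r15a (0.33, adjusted p = 0.0910) was called. Among Myc partners and targets 5 of 8 were called higher (median 0.50), against 1, led under median scaling by Odc1, the rate-limiting enzyme of polyamine synthesis (0.82 ± 0.19, adjusted p = 0.00154), Ldha (0.66 ± 0.17, adjusted p = 0.00372) and Nop58 (0.60 ± 0.21, adjusted p = 0.0209). Under quantile normalization Ldha and Nop58 were at -0.19 and -0.02 and not called. The gene called there was Mxi1, a Myc antagonist (0.69), named after its value was seen.

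Among AP-1 targets 9 of 16 were called higher and 1 lower (median 0.72), and 9 and 1 under quantile normalization (median 0.68), with 9 calls shared. Timp1, a metalloproteinase inhibitor, had controls of 1.95 to 2.94 and STZ of 6.06 to 287, the last from rat 1, and its log2 fold change of 2.80 ± 0.54 (adjusted p = 0.000488) became 1.99 (adjusted p = 2.81e-05) without that rat. Hmox1, the heme oxygenase of oxidative stress, was below background in all 6 controls and above it in 5 of 6 STZ rats. Its measured signal difference was called (adjusted p = 3.99e-05). Its mean STZ level, counting an STZ array below its own background as measured, was 3.17-fold the background level of the control arrays. Vim, an intermediate filament of glia, rose by 1.53 ± 0.23 (adjusted p = 8.74e-05). The lower gene was Mmp14, a membrane metalloproteinase, whose log2 signal differed by -0.99 ± 0.32 (adjusted p = 0.0140) with 4 of 6 controls and 0 of 6 STZ rats above background.

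**Figure D5:**
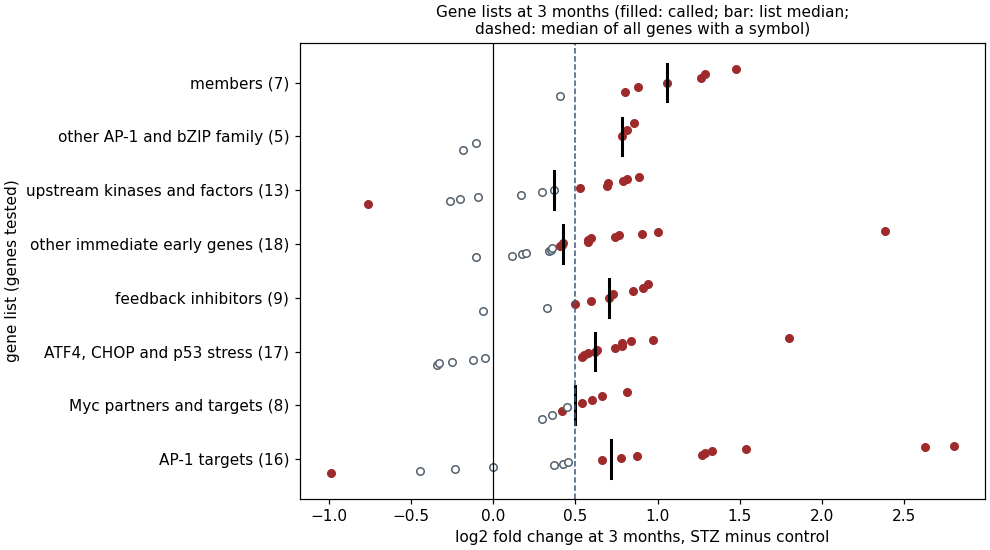
Log2 fold change at 3 months of each tested gene in 8 gene lists, including the members, under median scaling. Filled points are called, bars are list medians (from 0.37 for upstream kinases to 1.06 for the members) and the dashed line is the median of all genes with a symbol (0.50).

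Markers of other cell types moved at 3 months as well, beside 56.0% of all genes with a symbol called higher under median scaling. All 5 reactive glia markers tested were called higher under both scalings (summed level 15.8 to 38.9 in controls, 60.2 to 83.9 in STZ), and so were 7 of 8 lens genes (3 under quantile normalization, 130 to 325 in controls, 407 to 827 in STZ) and 2 of 3 microglia and leukocyte markers (5.04 to 8.47 in controls, 7.20 to 11.7 in STZ). Called higher under median scaling were also 4 of 5 bipolar and amacrine markers, 2 of 2 endothelial, 2 of 4 ganglion cell and 2 of 5 Mueller glia markers, and the rod genes Sag and Prph2, and 0 of these lists' markers were called higher under quantile normalization. Of 2 erythrocyte markers 1 was called higher under both scalings. Of 2 pigment epithelium markers 0 were called (3.07 to 13.4 in controls, 2.70 to 97.7 in STZ). The 97.7 came from the Ttr spot of STZ rat 1 (96.4, with 7.43 the highest of the other 5 STZ rats), and the defining marker Rpe65 was below background on all 12 of these arrays. Their part in the differences of the immediate early genes was not tested.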

How the data were processed

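Labelled retinal cRNA of each rat was hybridised to a CodeLink oligonucleotide array. The authors scanned the slides, excluded defective spots, subtracted local background and normalized within each array with CodeLink software. They deposited the background-subtracted intensity and a normalized intensity, both linear. The first was divided here by the median of the rat probes of its array, floored at 0.01 and log2-transformed. Rat probes with a median above the 35th percentile (22025) were tested. The 4 groups, taken from the sample titles, were fitted in 1 model with limma 3.58.1 (R 4.3.3). The number of arrays and the signal over background limit precision. The fit was tested on simulated data. Symbols came from RefSeq accessions. All probes of the members are named, and from the other lists the called genes with the 3 largest rises and all called falls. The members and lists were chosen with earlier results of these data known. Python 3.11.15, numpy 2.4.6 and scipy 1.17.1 served the shuffles. Alternatives changed the normalization, background, filter, floor, test, block and arrays. Some items are not reported here.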

Additional observations from a re-analysis of the deposited data

Results flagged for a closer look

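Within groups, 3 of 48 probe and group combinations had an array far from the rest by Dixon's criterion, which chance alone meets in about 1 in 20. They were Egr1 in 3 month STZ rat 1 (63.5, next 9.50), Nr4a1 in the same rat (40.1, next 6.18) and Fosl1 (GE20079) in 3 month control rat 2, the lowest at 0.209 with the next at 0.529.

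The 3 month effect minus the 1 month effect passed the interaction test for Jun (0.88), Junb (0.82), Fosl1 (GE21764, 0.63) and Gadd45a (1.19) on the log2 scale, where 15.5% of all probes did and the median of all probes was 0.44. Junb and Fosl1 had most or all 3 month arrays at background level.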

How the results depend on the processing

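At 1 month 2 probes of all were called, and 0 under quantile normalization, 5th percentile subtraction, the filter on all arrays, separate fits and the methods' test with adjustment, 1 with a floor of 0.1 or the replicate block, 4 without a filter, 262 by the methods' unadjusted test and 360 with array weights (1 to 5 leaving out 1 array). Where limma called 0, between 519 and 1466 probes had an unadjusted p under 0.05. At 3 months the 11911 calls became 6948 under quantile normalization, 3722 and 1921 by the methods' test without and with adjustment, and 0 with array spread as a covariate (1934 at an unadjusted p under 0.05), and they were 8734 (without 3 month control rat 2) to 14055 (without 3 month control rat 6) leaving out 1 array. The difference of the effects (3414) became 10325 with array weights, 0 with array spread (977 unadjusted) and 1844 without 3 month control rat 2 and STZ rat 1 together (759 without 3 month STZ rat 6 to 9230 without 3 month control rat 6). The methods' test with adjustment kept Junb, Fosl1 (GE21764) and Gadd45a at 3 months, and Egr1 was not called in separate fits (adjusted p = 0.0521). Replicate numbers did not pair the rats (same-number correlations -0.24 to 0.25), and the replicate block, with 11622 calls at 3 months and 2496 for the difference, lost the difference calls of Jun and Fosl1 and passed 3 pairs of members against 11, with 6 to 15 leaving out 1 array. Over all alternatives 912 member values kept their side of the threshold, 68 lost a call, 5 gained one, 5 moved without a call and 0 called values changed sign. The methods' test was not run for the difference of the effects.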
